A study of Mus musculus with 12 samples.

Results

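The genes described here are those that set all 9 samples of 3 knockout lines apart from all 3 samples of scramble control cells, in RNA-seq of a murine Braf V600E melanoma line. A gene was taken when each of its 9 knockout values lay above, or each lay below, the 3 scramble values on log2(RPKM + 1), where RPKM is reads per kilobase of transcript, scaled to library size. Of the 11282 genes whose values averaged 1 RPKM or more across the 12 samples, 468 met this rule (4.15%), 242 with higher values in the knockout samples (2.15%) and 226 with lower values (2%). Since the difference from scramble chose these genes, its size is given as a description. Tests of that difference are given mainly as counts over the whole table. Where such a test is named for a single gene, it is no separate support for that gene. Single genes among the 468 are tested for differences among the 3 knockout lines, which the rule did not use directly. It does limit them, since all 3 lines must lie on the same side of scramble. The filter on the mean over 12 samples was passed by 8 of the 468 genes with a scramble mean under 1 RPKM and by 12 with a knockout mean under 1 RPKM, so these genes were kept through the side on which they are high.

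The parental cells came from a C57BL/6 mouse carrying an inducible Braf V600E allele, a Cre recombinase driven by the tyrosinase promoter, and no p16INK4a, and all 4 lines share that origin. The 12 samples were 3 from cells given a scramble control and 3 from every knockout line, where CRISPR/Cas9 was aimed at *Ptgs1*, the gene for COX-1 (*ptgs1*-KO), at *Ptgs2*, the gene for COX-2 (*ptgs2*-KO), or at *Ptges*, the gene for mPGES-1 (*ptges*-KO). Knockout cells were selected with puromycin and subcloned by limiting dilution. Subclones of the scramble cells are also described in the paper, which reports RNA from 3 subclones per line. Each genotype is 1 edited line with its subclones, and the 3 comparisons share the same scramble samples, so a change that follows from losing the pathway and one that arose in the scramble cells, in editing, or in subcloning cannot be told apart.

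COX-1 and COX-2 turn arachidonic acid released from membranes into prostaglandin H2, and mPGES-1 turns that intermediate into prostaglandin E2. Prostaglandin E2 acts on G protein-coupled receptors, some of which raise cyclic AMP. COX-1 is usually present at a steady level, whereas COX-2 and mPGES-1 are induced by inflammatory and growth signals and are often high in tumors.

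The 12 libraries had an estimated depth of 13.3 to 16.9 M reads, and ribosomal RNA took 0.528% to 4.79% of the summed values in 11 of them and 13.5% in *ptgs1*-KO replicate 3. Pearson's r across genes between samples of the same line was at least 0.984. Of the melanocyte markers, *Sox10*, *Tyrp1*, *Dct*, and *Mlana* were listed at 0 in all 12 samples, *Pmel* and *Tyr* stayed at or below 1.29 RPKM, and *Mitf* and *Pax3* reached 3.35 and 8.45 RPKM. Of the markers that define the labelled cell type, 4 of 8 were thus absent from these values. The 8 melanocyte markers summed to 8.74 to 11.27 RPKM in scramble and 7.67 to 12.22 RPKM in knockout samples. The keratinocyte markers summed to 0.94 to 1.63 and 0.55 to 1.29 RPKM, with *Krt5*, *Krt14*, and *Krt1* at 0 throughout. The endothelial sums were at most 0.26 and 0.44 RPKM and the immune sums at most 0.04 and 0.14 RPKM. The fibroblast sums, nearly all *Pdgfra*, were 8.34 to 8.89 RPKM in scramble and 3.78 to 12.5 RPKM in knockout samples, with *Dcn* and *Lum* at 0 in all 12.

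Each targeted gene was lowest in its own line. *Ptgs1* (COX-1) was 142, 164, and 149 RPKM in scramble samples and 16.9, 16.8, and 14.3 RPKM in *ptgs1*-KO samples. *Ptgs2* (COX-2) was 749, 777, and 759 RPKM in scramble samples and 78.5, 84.6, and 76.1 RPKM in *ptgs2*-KO samples. Neither gene set all knockout samples apart from scramble. *Ptgs1* was 158, 169, and 146 RPKM in *ptgs2*-KO and 173, 138, and 146 RPKM in *ptges*-KO samples, and in both lines samples lay among the scramble values. *Ptgs2* was 624, 668, and 502 RPKM in *ptgs1*-KO samples, all below scramble, and 807, 715, and 739.7 RPKM in *ptges*-KO samples, which lay on both sides of it.

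*Ptges* (mPGES-1) was the 1 target among the 468 genes. It was 77.99, 75.01, and 79.8 RPKM in scramble samples, 41.01, 35.6, and 34.8 RPKM in *ptges*-KO samples, 56.9, 55, and 51.5 RPKM in *ptgs1*-KO samples, and 69.2, 69.4, and 63.4 RPKM in *ptgs2*-KO samples. Its values were therefore lower also in both lines in which it was not the target. The log2 fold change on the log2(RPKM + 1) scale was -0.50 ± 0.08 (SE) in *ptgs1*-KO and -0.20 ± 0.08 in *ptgs2*-KO cells, beside -1.05 ± 0.08 in its own line. In *ptgs2*-KO cells the difference from scramble did not pass (limma, adjusted p = 0.117). The paper reports *ptges* as reduced in *ptgs1*-KO and *ptges*-KO but not in *ptgs2*-KO cells. The 3 lines differed from each other (limma F test, adjusted p = 9.72e-06).

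Over all 11282 genes, the mean of the 3 knockout lines differed from scramble for 1163 genes (10.3%, limma, Benjamini-Hochberg adjusted p under 0.05), 563 of them higher (4.99%) and 600 lower (5.32%). Of these 1163 genes, 800 had values that overlapped between knockout and scramble samples, and the other 363 (182 higher, 181 lower) are among the 468, which the same values chose. Most of these differences were small. Among the 242 higher genes the median log2 fold change of the pooled lines was 0.31, with a range of 0.10 to 2.73, and among the 226 lower genes it was -0.45, with a range of -2.45 to -0.10. Over all genes tested the median was -0.00417. Leaving out scramble replicate 1, 2, or 3 lowered the 1163 calls to 466, 523, and 548 and raised the 468 non-overlapping genes to 741, 794, and 880. Leaving out *ptgs1*-KO replicate 3, the library with the most ribosomal RNA, raised the 468 to 747. That rise was mostly on the higher side, with 503 higher and 244 lower genes. A change of at least 0.5 in each of the 3 lines was reached by 19 higher and 32 lower genes, and a change of at least 1 in each line by 4 higher and 7 lower genes.

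**Figure D1:**
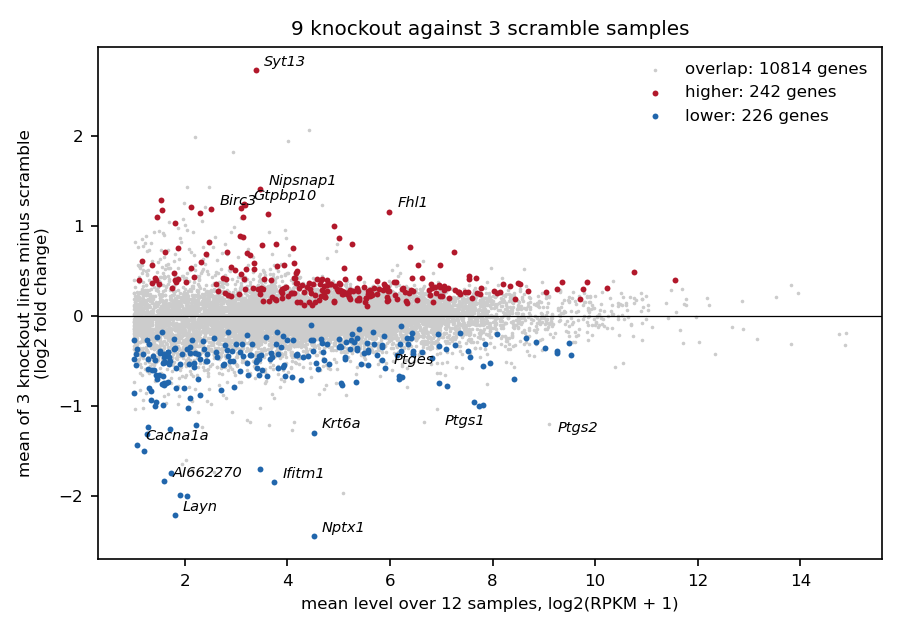
Each point is 1 of the 11282 genes tested, with its mean level over the 12 samples on log2(RPKM + 1) on the horizontal axis and the mean of the 3 knockout lines minus scramble (log2 fold change) on the vertical axis. The 242 genes with all 9 knockout values above scramble are red, the 226 with all below are blue, and the 10814 overlapping genes, including *Ptgs1* and *Ptgs2*, are grey.

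The 3 samples of a line are not independent of each other in what the line carries. With the samples of all knockout lines as 1 group, so that the spread between lines counts as error, 30 genes passed, and with the line as a random block 8 genes passed, 4 higher and 4 lower. The 8 were *Syt13*, *Nipsnap1*, *Gtpbp10*, and *Birc3* on the higher side and *AI662270*, *Ifitm1*, *Krt6a*, and *Cacna1a* on the lower side. In that fit the correlation between samples of a line was estimated at 0.474, and 310 of the 11282 genes had an unadjusted p under 0.05. These fits use the same difference as the rule, so the 8 genes are named as a description and gain no separate support. *Syt13* had a scramble mean of 0.87 RPKM, and *AI662270* and *Cacna1a* had knockout means of 0.85 and 0.47 RPKM. These genes thus passed the filter on the mean through the side on which they are high. The SE given below for single genes come from the fit with 4 line means, and for the 8 genes they were larger with the line as a random block, from 0.163 for *Krt6a* to 0.354 for *Syt13*.

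*Syt13* encodes an atypical synaptotagmin, a membrane trafficking protein that does not bind calcium in the way of its relatives. Its level was 0.63, 1.08, and 0.89 RPKM in scramble, 21.5, 17.9, and 16.3 RPKM in *ptgs1*-KO, 12.9, 12.02, and 11.3 RPKM in *ptgs2*-KO, and 7.3, 5.7, and 6.26 RPKM in *ptges*-KO samples. All 9 knockout samples were several times above every scramble sample, and the ratio of mean RPKM was 14.2. The log2 fold change was 2.73 ± 0.11 (SE). The order *ptgs1*-KO above *ptgs2*-KO above *ptges*-KO held without overlap between lines, and the lines differed (limma F test, adjusted p = 1.02e-05).

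A pair of genes for mitochondrial proteins followed. *Nipsnap1*, whose product lies in the mitochondrial matrix and has been tied to mitophagy, was 3.78, 3.66, and 4.09 RPKM in scramble, 16.9, 16.1, and 11.9 RPKM in *ptgs1*-KO, 9.98, 12.97, and 11.9 RPKM in *ptgs2*-KO, and 9.49, 10.03, and 9.67 RPKM in *ptges*-KO samples. Every knockout sample was well above the highest scramble sample, and the log2 fold change was 1.41 ± 0.10. *Gtpbp10*, a GTPase needed to assemble the large subunit of the mitochondrial ribosome, was 3.39, 4.05, and 3.01 RPKM in scramble, 11.5, 11.8, and 9.81 RPKM in *ptgs1*-KO, 9.63, 9.69, and 9.08 RPKM in *ptgs2*-KO, and 8.03, 8.8, and 7.97 RPKM in *ptges*-KO samples. Its log2 fold change was 1.24 ± 0.09. By line mean both genes were highest in *ptgs1*-KO and lowest in *ptges*-KO cells among the knockouts, with adjusted p = 0.0118 and 0.0404 for the difference among lines (limma F test).

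*Birc3* encodes cIAP2, a ubiquitin ligase of tumor necrosis factor receptor signaling that restrains cell death. It was 2.24, 1.63, and 1.9 RPKM in scramble, 5.73, 7.3, and 5.66 RPKM in *ptgs1*-KO, 6.62, 5.65, and 5.15 RPKM in *ptgs2*-KO, and 4.6, 5.21, and 5.05 RPKM in *ptges*-KO samples. The log2 fold change was 1.18 ± 0.10. Values of *ptgs2*-KO samples overlapped those of both other lines, and the difference among lines did not pass the test (adjusted p = 0.21, limma F test).

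On the lower side, *AI662270*, a gene without a well-established function, was 6.46, 5.2, and 5.03 RPKM in scramble, 0.55, 0.82, and 0.79 RPKM in *ptgs1*-KO, 1.36, 1.28, and 1.17 RPKM in *ptgs2*-KO, and 0.67, 0.57, and 0.44 RPKM in *ptges*-KO samples. Knockout cells thus held 15.3% of the scramble mean, a log2 fold change of -1.84 ± 0.10. *Ifitm1*, an interferon-induced transmembrane protein that restricts virus entry, was 34.2, 23.9, and 25.9 RPKM in scramble, 4.89, 6.49, and 5.82 RPKM in *ptgs1*-KO, 5.41, 7.02, and 7.25 RPKM in *ptgs2*-KO, and 8.45, 8.97, and 9.52 RPKM in *ptges*-KO samples. Its mean fell to 25.3% of scramble, and its log2 fold change was -1.85 ± 0.12. *Ifitm1* has close relatives in the genome, and how shared reads were counted was not given in the sources used here.

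*Krt6a*, a keratin of injured epidermis and of skin appendages, was 39.1, 39, and 41.5 RPKM in scramble, 20.2, 19.8, and 18.9 RPKM in *ptgs1*-KO, 14.04, 13.3, and 13.5 RPKM in *ptgs2*-KO, and 14.8, 13.2, and 14.4 RPKM in *ptges*-KO samples. Replicates lay close together within each line, and the log2 fold change was -1.30 ± 0.06. Of the keratinocyte markers, *Krt5*, *Krt14*, and *Krt1* were listed at 0, and *Krt10* was 0.94 to 1.56 RPKM in scramble and 0.50 to 1.29 RPKM in knockout samples. Reads of *Krt6a* may be shared with its near-copy *Krt6b*. *Cacna1a*, the pore-forming subunit of the P/Q-type calcium channel of neurons, was 3.04, 2.4, and 3.46 RPKM in scramble, 0.75, 0.59, and 0.56 RPKM in *ptgs1*-KO, 0.3, 0.31, and 0.32 RPKM in *ptgs2*-KO, and 0.51, 0.47, and 0.39 RPKM in *ptges*-KO samples. Its log2 fold change was -1.43 ± 0.10, and the limma F test did not show a difference among lines (adjusted p = 0.148).

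**Figure D2:**
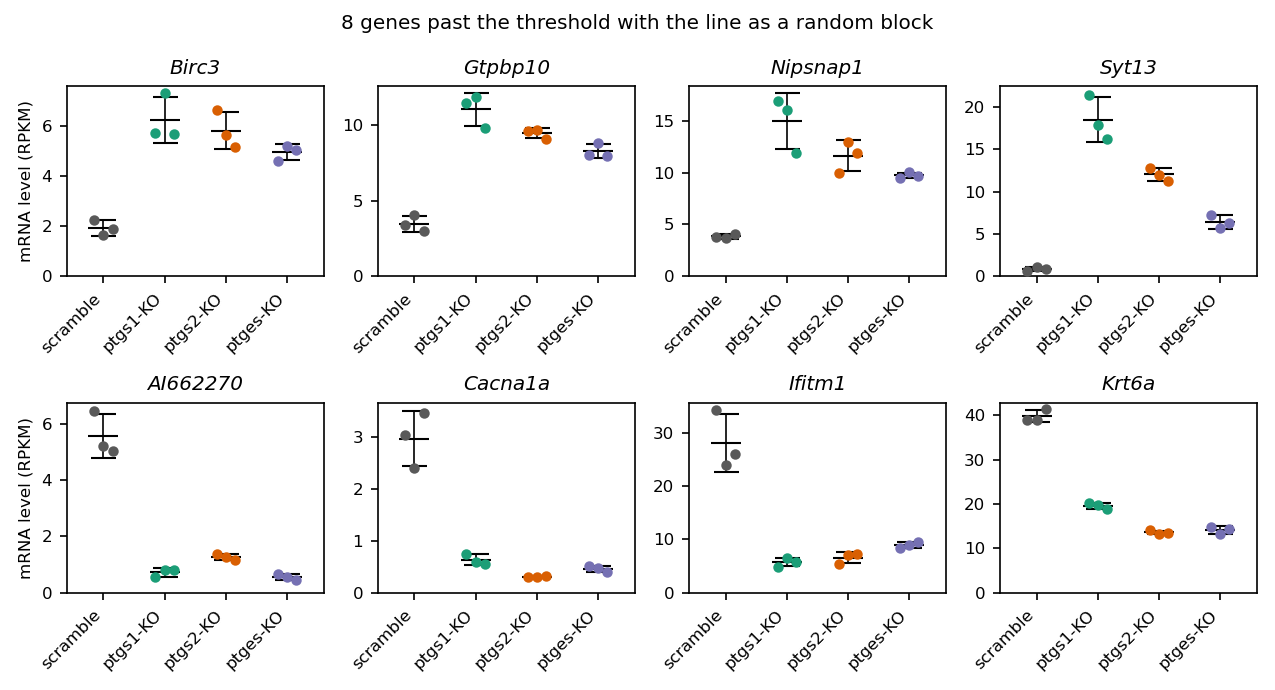
The mRNA level (RPKM, linear axis from 0) of the 8 genes that passed with the line as a random block, in the 3 samples of each of 4 lines. Points are samples, horizontal bars are means, and error bars are SD (n = 3), and in each panel all 9 knockout points lie on 1 side of the 3 scramble points.

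On GRCm38 the 8 genes lie on 7 chromosomes: *Syt13* at chr2:92915101-92956051, *Nipsnap1* at chr11:4873951-4894201, *Gtpbp10* at chr5:5537454-5559541, *Birc3* at chr9:7847468-7873205, *AI662270* at chr11:83223576-83226584, *Ifitm1* at chr7:140967429-140969827, *Krt6a* at chr15:101689928-101694305, and *Cacna1a* at chr8:84338631-84640251. *Nipsnap1* and *AI662270* share chromosome 11 but moved in opposite directions. RefSeq promoters, 250 bases before to 50 bases after the gene start, were at hand for 4 of the 8, and are shown because prostaglandin E2 receptors act in part through cyclic AMP and its response element, TGACGTCA. Capitals mark each match to TGACGTCA (CRE), TGANTCA (AP-1), CACGTG (E-box), CCGGAAG (ETS), CCAAT (NF-Y), GGGCGG (SP), TTCNNNGAA (STAT), or GGAATG (TEAD), searched on both strands. Matches to different motifs can overlap.

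Nipsnap1: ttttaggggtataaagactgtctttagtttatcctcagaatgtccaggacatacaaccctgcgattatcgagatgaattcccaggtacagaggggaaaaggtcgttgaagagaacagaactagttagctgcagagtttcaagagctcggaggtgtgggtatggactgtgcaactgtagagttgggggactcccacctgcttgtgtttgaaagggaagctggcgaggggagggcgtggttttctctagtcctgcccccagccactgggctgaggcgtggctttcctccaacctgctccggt
Gtpbp10: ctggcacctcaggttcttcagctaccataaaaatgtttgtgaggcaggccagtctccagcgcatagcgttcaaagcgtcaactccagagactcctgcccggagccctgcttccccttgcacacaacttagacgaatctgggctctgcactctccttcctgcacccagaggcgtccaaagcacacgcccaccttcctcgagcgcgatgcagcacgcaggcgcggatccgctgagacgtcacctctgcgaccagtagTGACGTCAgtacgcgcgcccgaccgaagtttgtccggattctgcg
Birc3: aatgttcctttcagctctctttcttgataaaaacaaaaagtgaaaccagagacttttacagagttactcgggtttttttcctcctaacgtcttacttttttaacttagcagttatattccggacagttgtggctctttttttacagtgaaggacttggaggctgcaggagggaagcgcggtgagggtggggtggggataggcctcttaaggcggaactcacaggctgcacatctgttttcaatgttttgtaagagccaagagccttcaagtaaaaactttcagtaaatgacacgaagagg
Ifitm1: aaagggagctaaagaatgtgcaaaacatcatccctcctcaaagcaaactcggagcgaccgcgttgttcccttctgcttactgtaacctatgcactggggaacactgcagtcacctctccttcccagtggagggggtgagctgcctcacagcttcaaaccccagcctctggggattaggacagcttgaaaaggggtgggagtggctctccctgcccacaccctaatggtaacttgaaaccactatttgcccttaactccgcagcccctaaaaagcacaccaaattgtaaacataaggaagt

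These windows are chr11:4873701-4874000 (+ strand), chr5:5559492-5559791 (- strand), chr9:7873121-7873420 (- strand), and chr7:140967826-140968125 (+ strand) on GRCm38.p6. Those of *Birc3* and *Ifitm1* belong to an annotated transcript start inside the span given above for the gene. The full CRE stood in the *Gtpbp10* window, starting 6 bases after the gene start, and none of the 8 motifs was found in the other 3 windows.

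The same search was run on all promoter windows of genes tested. TGACGTCA was present in 4.23% of 260 windows of the higher genes, in 1.04% of 193 windows of the lower genes, and in 3.29% of 10984 windows of all genes tested, that is in 11, 2, and 361 windows. Its half-site TGACG, which every CRE contains, was present in 31.9%, 25.9%, and 32.5%. ETS motifs were present in 16.2%, 11.4%, and 19.1%, and TEAD motifs in 13.8%, 17.1%, and 11.8%. The shares for AP-1 were 5%, 5.18%, and 4.71%, for the E-box 11.5%, 11.9%, and 10.3%, for NF-Y 41.5%, 37.3%, and 38.6%, for SP 63.8%, 64.8%, and 65.1%, and for STAT 7.69%, 5.7%, and 6.69%. These are descriptions of 195 higher, 156 lower, and 8638 tested genes with a window, and a gene may have several windows.

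Besides *Syt13*, *Nipsnap1*, *Gtpbp10*, and *Birc3*, the 15 higher genes with the largest change in their weakest line included *4632428N05Rik*, *Lgals9*, and *Inhba*. *4632428N05Rik*, named *Vsir* in RefSeq and encoding the inhibitory checkpoint receptor VISTA, was 0.29, 0.44, and 0.29 RPKM in scramble, 3.66, 4.05, and 3.43 RPKM in *ptgs1*-KO, 1.69, 1.14, and 1.07 RPKM in *ptgs2*-KO, and 2.3, 2.41, and 2.06 RPKM in *ptges*-KO samples. It was under 1 RPKM in every scramble sample and above 1 RPKM in every knockout sample, and the lines differed (limma F test, adjusted p = 0.000132). *Lgals9*, which encodes galectin-9, a lectin with immune-modulating roles, was 3.37, 3.83, and 4.14 RPKM in scramble, 7.21, 6.71, and 8.28 RPKM in *ptgs1*-KO, 6.28, 6.5, and 6.64 RPKM in *ptgs2*-KO, and 6.82, 6.4, and 6.57 RPKM in *ptges*-KO samples. Its 3 lines were close together, with log2 fold changes of 0.81, 0.65, and 0.67 ± 0.10 (SE) and an adjusted p of 0.351 for their difference (limma F test). *Inhba*, the subunit that forms activin A, was 4.43, 3.5, and 4.56 RPKM in scramble samples and had a lowest, median, and highest value of 7.29, 8.06, and 11.99 RPKM in the 9 knockout samples.

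*Fhl1*, a LIM-domain protein of muscle and of mechanical signaling, was the most abundant of the 15, at 30.3, 28.98, and 30.6 RPKM in scramble, 45.7, 46.02, and 42.9 RPKM in *ptgs1*-KO, 62.9, 62.96, and 61.6 RPKM in *ptgs2*-KO, and 121, 111, and 105 RPKM in *ptges*-KO samples. It rose stepwise across lines without overlap, with log2 fold changes of 0.57, 1.04, and 1.87 ± 0.07 (SE; limma F test, adjusted p = 4.3e-08). *Gramd1b*, a carrier of cholesterol from the plasma membrane to the endoplasmic reticulum, was 0.42, 0.33, and 0.49 RPKM in scramble, 1.31, 1.13, and 0.87 RPKM in *ptgs1*-KO, 2.93, 3.54, and 4.11 RPKM in *ptgs2*-KO, and 2.29, 1.96, and 1.6 RPKM in *ptges*-KO samples. *Sult2b1*, a sulfotransferase that acts on cholesterol and other sterols, was 4.17, 2.87, and 3.58 RPKM in scramble, 15.4, 11.8, and 11.8 RPKM in *ptgs1*-KO, 8.46, 8.66, and 9.22 RPKM in *ptgs2*-KO, and 5.44, 4.67, and 7.01 RPKM in *ptges*-KO samples. *Gramd1b* was highest in *ptgs2*-KO and *Sult2b1* in *ptgs1*-KO cells, and both differed among lines (limma F test, adjusted p = 0.00017 and 0.000385).

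*Sh3bp1*, a GTPase-activating protein, was 0.45, 0.29, and 0.63 RPKM in scramble samples and 1.28, 2.11, and 4.23 RPKM (lowest, median, highest) in knockout samples. For *Rab7l1* (*Rab29* in RefSeq), a small GTPase of the Golgi and lysosomes, the corresponding values were 0.89, 1.39, and 2.6 RPKM and 3.04, 4.37, and 7.09 RPKM. Scramble replicate 3 of *Rab7l1* was nearly as high as the lowest knockout sample. *Poc1b*, a centriole protein whose gene model overlaps *Galnt4*, was 7.24, 7.12, and 8.85 and 10.6, 13.6, and 19.3 RPKM, *Tmem200a* was 5.59, 5.71, and 4.89 and 8.83, 12.9, and 18.4 RPKM, and *Gm2115* was 21.4, 24.3, and 23.6 and 33.5, 36.97, and 60.5 RPKM.

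The 15 lower genes with the largest change in the weakest line included *Nptx1*, *Gria3*, and *Cacna1a*. *Nptx1*, the secreted neuronal pentraxin that clusters glutamate receptors, was 48.9, 54.7, and 51.8 RPKM in scramble, 28.98, 25.9, and 21.3 RPKM in *ptgs1*-KO, 6.71, 6.02, and 5.41 RPKM in *ptgs2*-KO, and 4.3, 3.65, and 3.78 RPKM in *ptges*-KO samples. It had the lowest log2 fold change of the 468 genes, -2.45 ± 0.09 (SE), but *ptgs1*-KO samples stayed well above those of the other 2 lines, and the lines differed (limma F test, adjusted p = 9.93e-09). *Gria3*, a subunit of AMPA-type glutamate receptors, was 3.49, 4.51, and 2.22 RPKM in scramble, 0.26, 0.36, and 0.41 RPKM in *ptgs1*-KO, 0.11, 0.08, and 0.11 RPKM in *ptgs2*-KO, and 1.44, 1.34, and 1.37 RPKM in *ptges*-KO samples. Both differed among lines, *Gria3* being highest in *ptges*-KO cells among the knockouts (limma F test, adjusted p = 0.000451), and *Cacna1a* was described above.

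*Layn* encodes layilin, a hyaluronan receptor, and was 8.09, 6.52, and 6.75 RPKM in scramble, 0.07, 0.26, and 0.07 RPKM in *ptgs1*-KO, 0.23, 0.59, and 0.53 RPKM in *ptgs2*-KO, and 2.53, 2.09, and 2.18 RPKM in *ptges*-KO samples. It was near 0 in *ptgs1*-KO and *ptgs2*-KO cells and intermediate in *ptges*-KO cells (limma F test, adjusted p = 5.43e-06). *Slc14a1*, a urea transporter, was 6.06, 5.42, and 6.31 RPKM in scramble, 0.99, 2.24, and 1.96 RPKM in *ptgs1*-KO, 1.01, 1.13, and 1.37 RPKM in *ptgs2*-KO, and 0.82, 0.24, and 0.5 RPKM in *ptges*-KO samples. *Mill2*, a relative of MHC class I molecules, was 3.45, 2.14, and 4.13 RPKM in scramble samples and 0.24, 0.72, and 1.82 RPKM in knockout samples (lowest, median, highest), so that scramble replicate 2 was close to the highest knockout sample.

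*Plcd1*, a phospholipase C of phosphoinositide signaling, was 2.48, 2.77, and 3.07 RPKM in scramble and 0.81, 1.16, and 1.53 RPKM in knockout samples. The co-chaperone gene *1700021C14Rik* (*Tsacc* in RefSeq) was 3.29, 3.66, and 2.78 and 0.71, 1.19, and 1.57 RPKM, and the SH2-domain adaptor *Sh2d5* was 2.71, 2.45, and 2.57 and 0.7, 0.88, and 1.83 RPKM. *Neat1*, the long noncoding RNA that builds paraspeckles, was the most abundant of the 15, at 178, 149, and 196 RPKM in scramble and 69.99, 111, and 143 RPKM in knockout samples, and its replicates varied widely within each knockout line. The remaining 2 of the 15 carry only a cDNA clone name and fell to 47.3% and 48.5% of the scramble mean.

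**Figure D3:**
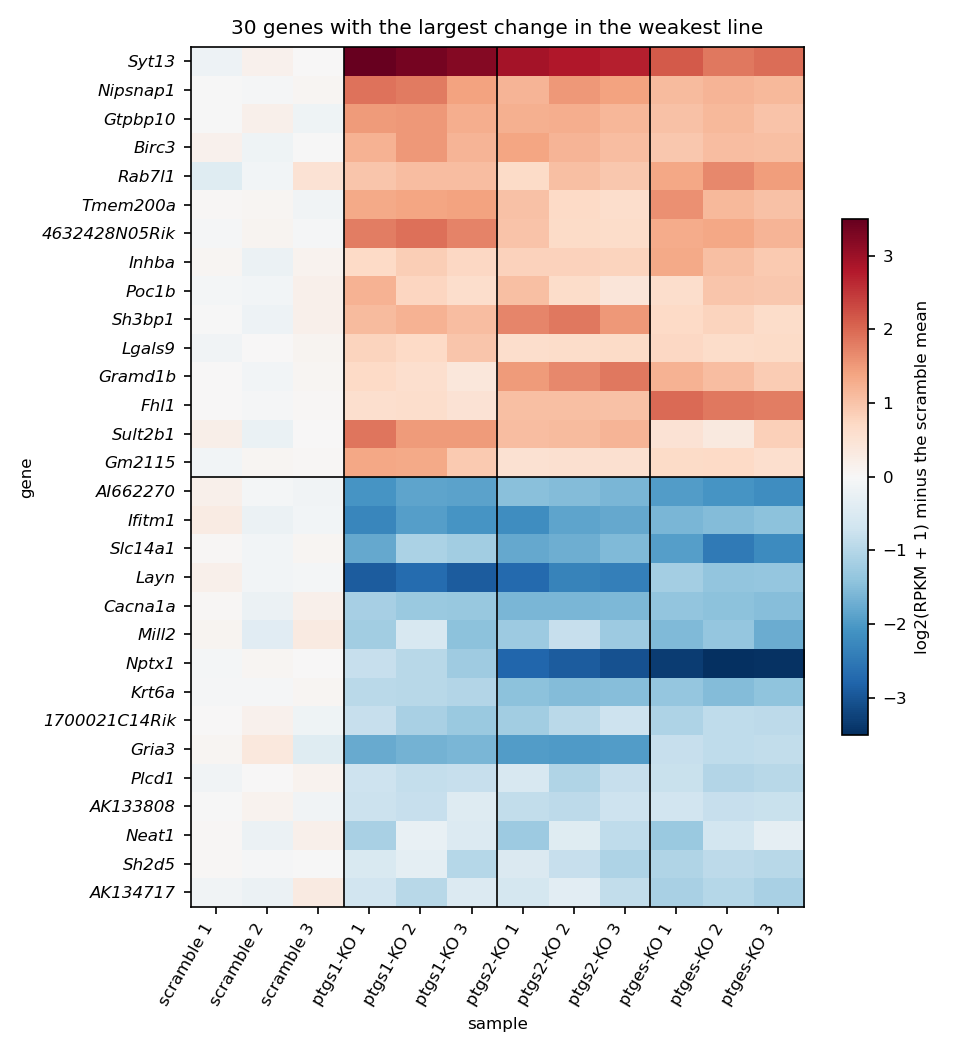
Log2(RPKM + 1) minus the scramble mean for the 15 higher (top) and 15 lower (bottom) genes with the largest change in their weakest line, in the 12 samples. Red is above and blue below scramble, and the colour differs between lines for genes such as *Fhl1* and *Nptx1* but is nearly even for *Lgals9* and *Cacna1a*.

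In the interferon and nucleic acid sensing list, 5 of 12 tested genes were higher and 1 lower by the pooled test, beside 4.99% and 5.32% of all genes, and the list's median log2 fold change was 0.227. *Bst2* (tetherin, which holds budding viruses at the cell surface) and *Ifit2* were non-overlapping. *Bst2* was 11.3, 10.6, and 8.8 RPKM in scramble and 13.3, 15.2, and 19.3 RPKM in knockout samples, and *Ifit2* was 18.03, 16.3, and 18.4 and 19.1, 22.3, and 24.3 RPKM. *Tmem173* (STING), *Aim2*, and *Trim25* were the other higher genes and *Stat2* the lower one. Genes of these lists that are not among the 468 were named after their values were seen. Here and in the lists below, their knockout and scramble values overlapped, so a pooled call need not hold in every line. *Ptgs1* and *Ptgs2* also passed the pooled test (limma, adjusted p = 4e-06 and 1.07e-06), each falling most in its own line. *Ifitm1*, an interferon-induced gene outside the list, moved in the opposite direction to *Bst2* and *Ifit2*. In the MHC class I list 1 of 11 tested genes (*H2-T23*) was higher and none lower.

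Among matrix glycoproteins and proteases, 2 of 19 tested genes (*Fbln1*, *Nid2*) were higher and 6 (*Fbln2*, *Spp1*, *Lama5*, *Mmp14*, *Plau*, *Plat*) lower, with a median log2 fold change of -0.151. Over all genes tested the shares were 4.99% higher and 5.32% lower. *Lama5*, the laminin α5 chain of basement membranes, was 305, 359.9, and 359 RPKM in scramble, 296, 262, and 221 RPKM in *ptgs1*-KO, 213, 179, and 153 RPKM in *ptgs2*-KO, and 140.3, 92.6, and 96.9 RPKM in *ptges*-KO samples. *Nid2*, a nidogen that links basement membrane networks, went the other way, at 10.03, 10.2, and 9.65 RPKM in scramble, 29.8, 28.6, and 22.3 RPKM in *ptgs1*-KO, 15.6, 13.9, and 12.1 RPKM in *ptgs2*-KO, and 16.8, 13.1, and 14.1 RPKM in *ptges*-KO samples. Its gene model overlaps *2700060E02Rik*. *Mmp14*, a membrane-bound collagenase, was 516, 559, and 516 RPKM in scramble and 338, 427, and 504 RPKM in knockout samples.

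Of all genes tested, 4.99% were higher, 5.32% lower, and 4.15% non-overlapping. Among collagens, 3 of 11 tested genes (*Col5a2*, *Col6a1*, *Col7a1*) were higher and 4 (*Col3a1*, *Col4a1*, *Col16a1*, *Col18a1*) lower, with a median of -0.177, and 1 was non-overlapping. That gene, *Col3a1*, a fibrillar collagen, was 448, 475, and 474 RPKM in scramble, 426, 403, and 367 RPKM in *ptgs1*-KO, 324, 296, and 251 RPKM in *ptgs2*-KO, and 224, 196, and 192 RPKM in *ptges*-KO samples. The *ptges*-KO samples were lowest and the *ptgs1*-KO samples closest to scramble, and the lines differed (limma F test, adjusted p = 2.69e-05). Of collagen processing genes 0 of 15 were higher and 3 (*Plod1*, *Bmp1*, *Loxl3*) lower, and of integrins 0 of 10 were higher and 3 (*Itga5*, *Itga7*, *Itgb7*) lower, with no non-overlapping gene in either list. Of cell-cell adhesion genes 0 of 12 were higher and 3 (*Pvrl2*, *Alcam*, *Vcam1*) lower. *Vcam1*, an adhesion molecule bound by leukocyte integrins, was 196, 202, and 187 RPKM in scramble, 173, 184, and 139.7 RPKM in *ptgs1*-KO, 99.95, 100.4, and 87.96 RPKM in *ptgs2*-KO, and 96.8, 90.8, and 89.3 RPKM in *ptges*-KO samples, and the lines differed (limma F test, adjusted p = 3.08e-05).

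Metabolic and stress lists gave further single genes, to be read beside 4.99% higher and 5.32% lower over all genes. Of 18 amino acid and endoplasmic reticulum stress genes 4 (*Trib3*, *Asns*, *Psat1*, *Atf5*) were higher and 0 lower. *Psat1*, an enzyme of serine synthesis, was 556, 518, and 527 and 589.8, 673, and 815 RPKM. Of 14 hypoxia and glycolysis genes 3 (*Hk2*, *Pgk1*, *Ndrg1*) were higher and 2 (*Egln3*, *Adm*) lower. *Egln3*, an oxygen-dependent prolyl hydroxylase that marks hypoxia-inducible factors for removal, was 2.9, 2.87, and 3.58 RPKM in scramble, 0.23, 0.07, and 0.19 RPKM in *ptgs1*-KO, 0.35, 0.32, and 0.24 RPKM in *ptgs2*-KO, and 2.16, 1.91, and 1.86 RPKM in *ptges*-KO samples, with *ptgs1*-KO and *ptgs2*-KO samples well below *ptges*-KO samples (limma F test, adjusted p = 3.3e-06). Of 11 NRF2 target genes 1 (*Gstm1*) was higher and 1 lower, and *Nqo1*, a quinone reductase, was 31.1, 33.2, and 33.8 RPKM in scramble and 20.6, 22.2, and 26.7 RPKM in knockout samples.

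For the remaining lists, 2 of 21 cell cycle genes (*Mcm6*, *Mcm7*) were higher and 0 lower. The shares over all genes were 4.99% higher and 5.32% lower. *Mcm6*, a subunit of the replicative helicase, was 244, 232, and 257 RPKM in scramble and 264, 292, and 340.1 RPKM in knockout samples. Of 18 MAPK output genes 1 (*Myc*) was higher and 2 (*Dusp5*, *Epha2*) lower, and the receptor tyrosine kinase *Epha2* was 605, 630.4, and 611 and 395, 488, and 581 RPKM. In the neural crest and mesenchymal list 1 of 14 (*Snai2*) was higher and 1 lower, and the transcription factor *Sox9* was 2.71, 3.08, and 2.75 and 1.31, 1.55, and 2.39 RPKM. Of 5 chemokines and cytokines tested 0 were higher and 2 (*Cx3cl1*, *Ccl2*) lower, and *Ccl2*, which attracts monocytes, was 64.2, 49.3, and 51.7 and 28.6, 39.6, and 43.9 RPKM.

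The lists closest to prostaglandin signaling held no non-overlapping gene besides *Ptges*, where 4.15% of all genes did not overlap. By the pooled test, 4.99% of all genes were higher and 5.32% lower. Of 11 tested prostanoid synthesis and turnover genes 0 were higher and 2 lower (*Cbr1* and *Ptgr2*), and of 3 tested prostanoid receptors none passed in either direction. Of 12 cAMP-responsive genes 1 (*Nr4a1*) was higher and 3 (*Fos*, *Fosb*, *Dusp1*) lower, and of 19 p53 target genes 1 (*Pmaip1*) was higher and 1 (*Btg2*) lower. All of these called genes had values that overlapped between knockout and scramble samples, so the calls need not hold in every line. Of 4 tested melanocyte lineage genes 1 (*Gpnmb*) was lower, of the fibroblast markers the 1 tested gene (*Pdgfra*) was lower in the pooled test, though all 3 *ptgs1*-KO samples (10.4, 11.1, and 9.86 RPKM) lay above the scramble samples (8.06, 7.82, and 8.37 RPKM), of the melanocyte and keratinocyte markers 2 and 1 were tested and none passed, and of 2 tested drug efflux pumps none passed. No endothelial marker, immune marker, or gene of the Y chromosome list reached the level to be tested.

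**Figure D4:**
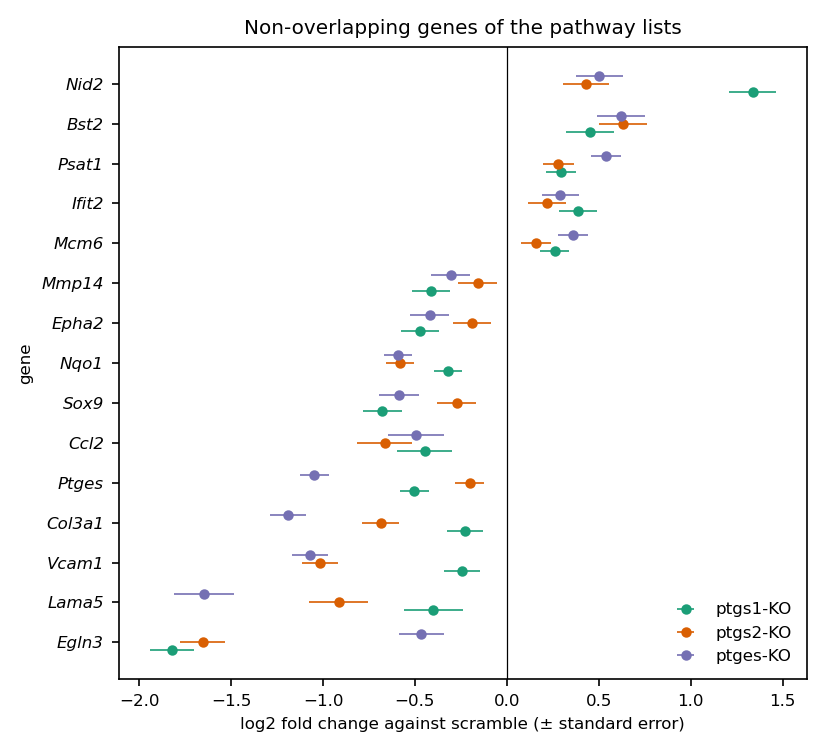
Log2 fold change against scramble (horizontal axis, error bars are SE from limma) in each knockout line for 15 non-overlapping genes of the pathway lists. All points of a gene lie on 1 side of 0, the lines lie close together for *Ifit2* and *Bst2*, and they spread widely for *Egln3*, *Lama5*, and *Nid2*.

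Differences among the 3 knockout lines, which the rule did not use directly, were then tested. The rule left out genes whose lines lay on different sides of scramble, so the share among the 468 is affected by that choice. Over all genes 4186 differed among the lines (37.1%, limma F test, adjusted p under 0.05), and of the 468 genes 167 did (35.7%), 82 of the higher (33.9%) and 85 of the lower genes (37.6%). The share was close to that over all genes, and for the other 301 genes the test did not show a difference. The change was largest in *ptges*-KO cells for 140 higher and 138 lower genes, in *ptgs1*-KO cells for 62 and 43, and in *ptgs2*-KO cells for 40 and 45. The line with the largest change was not counted over all genes, so these numbers are not a trait of the 468. Over all genes the comparison of each line with scramble (limma) gave 2969 calls in *ptges*-KO, 1045 in *ptgs1*-KO, and 1257 in *ptgs2*-KO cells.

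The genes with the most even response were *Triap1*, *8430410K20Rik* (*Msantd4* in RefSeq), *Racgap1*, *Arntl*, and *Stra13*. *Arntl*, which encodes the clock factor BMAL1, had log2 fold changes of 0.35, 0.33, and 0.35 ± 0.11 (SE) in the 3 lines, in the order *ptgs1*, *ptgs2*, and *ptges* knockout, and *Racgap1*, a protein of cytokinesis, had 0.20, 0.20, and 0.18 ± 0.08. These even changes were small, at most 0.48 in size in any line. Over 26 alternative settings the pooled limma test was passed 20 times by *Arntl*, 6 by *8430410K20Rik*, 5 by *Racgap1*, 3 by *Triap1*, and 0 by *Stra13*. That test uses the same difference as the rule, so these counts describe dependence on the settings and are no separate support.

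The genes with the least even response were *Tgfbi*, *Pdlim1*, *Sema6b*, *Rbm12b1*, and *Pcdh7*. *Pcdh7*, a protocadherin, was 16.97, 17.6, and 17.6 RPKM in scramble, 0.32, 0.1, and 0.18 RPKM in *ptgs1*-KO, 10.8, 9.79, and 7.85 RPKM in *ptgs2*-KO, and 14.8, 12.96, and 12.3 RPKM in *ptges*-KO samples. *Tgfbi*, a secreted matrix protein induced by TGF-β, was 5.75, 5.13, and 4.89 RPKM in scramble, 0.56, 0.46, and 0.42 RPKM in *ptgs1*-KO, 2.98, 3.67, and 2.62 RPKM in *ptgs2*-KO, and 4.77, 4.02, and 2.94 RPKM in *ptges*-KO samples. *Sema6b*, a transmembrane semaphorin, was 9.68, 9.72, and 9.51 RPKM in scramble, 7.8, 6.1, and 5.23 RPKM in *ptgs1*-KO, 9.17, 8.76, and 7.85 RPKM in *ptgs2*-KO, and 2.69, 2.2, and 2.12 RPKM in *ptges*-KO samples. For *Pcdh7* and *Tgfbi* most of the pooled change was in *ptgs1*-KO cells, and for *Sema6b* in *ptges*-KO cells. The lines differed for each of these 3 (limma F test, adjusted p = 2.96e-10, 2.46e-06, and 2.61e-06). These genes were picked by the spread of the same line means, so the test is a description and no separate support.

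At the edge of the rule, the last gene taken on the higher side was *Eif3a*, a translation initiation factor subunit, with a highest scramble value of 263.99 and a lowest knockout value of 264.15 RPKM. *Nme4*, a mitochondrial nucleoside diphosphate kinase, was just outside: it was listed at 0 in all scramble and all *ptgs2*-KO samples but was 5.78, 5.71, and 5.04 RPKM in *ptgs1*-KO and 7.32, 9.04, and 9.85 RPKM in *ptges*-KO samples. On the lower side the zinc transporter gene *Slc30a5* was just inside, with a lowest scramble value of 90.37 and a highest knockout value of 90.33 RPKM, and a cDNA clone with a tie at 5.51 RPKM was just outside.

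The level entered the rule through its filter, and it is given with transcript length and GC content as a description. The higher genes had a median level of 28.5 RPKM, a median transcript length of 3362 bases, and a median GC content of 47.3%. The lower genes had 9.89 RPKM, 2903 bases, and 53.2%, and all genes tested had 21.2 RPKM, 3421 bases, and 49.5%. Transcripts were matched for 98.3% of the higher, 87.6% of the lower, and 94.5% of all genes. Of the 437 genes with a position, 14 pairs were direct neighbours among tested genes, 10 of them moving in the same direction, and no run was longer than 2.

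The 468 genes were spread over all chromosomes, from 1.13% of tested genes on chromosome 3 to 6.18% on the X chromosome. Chromosome 3 held none of the higher genes and 6 of the lower genes among its 530 tested genes. Its lines did not move together: relative to all genes, the median of its genes was -0.304, -0.278, and -0.299 (log2) in *ptgs1*-KO samples, 0.172, 0.155, and 0.161 in *ptgs2*-KO samples, and 0.067, 0.069, and 0.068 in *ptges*-KO samples, and at most 0.007 in scramble samples. Chromosome 16, with 2.45% of its genes taken, had medians of -0.11, -0.114, and -0.127 in *ptges*-KO samples, against 0.006 to 0.055 in the other knockout samples. These shifts were noticed after the data were seen, and their part in the counts was not tested.

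**Figure D5:**
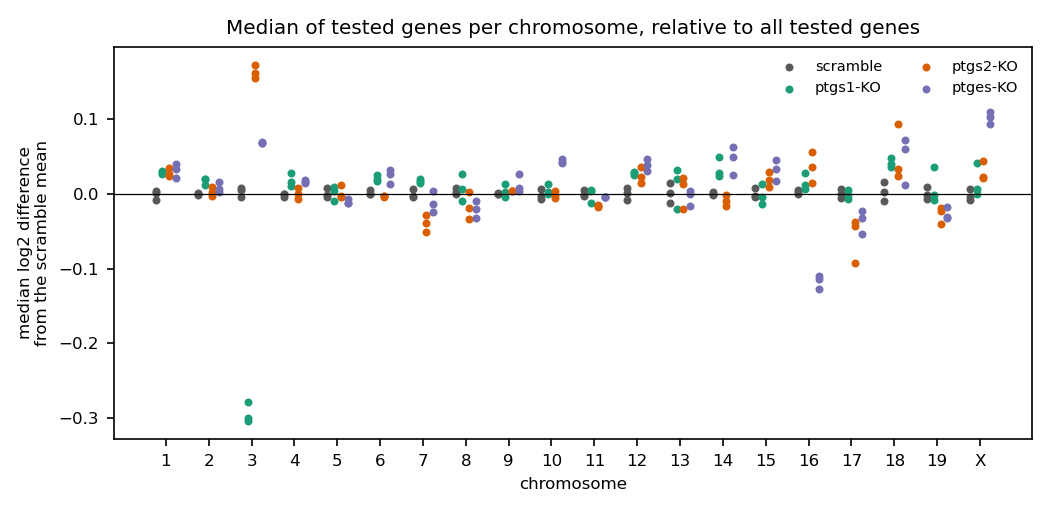
Median log2 difference from the scramble mean over the tested genes of each chromosome, relative to all tested genes, in each of the 12 samples (points, coloured by line). Chromosome 3 is near -0.3 in the 3 *ptgs1*-KO samples and above 0.15 in the 3 *ptgs2*-KO samples, and chromosome 16 is below -0.1 in the 3 *ptges*-KO samples.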

How the data were processed

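RNA-seq values of 12 samples were analyzed, with groups taken from the labels. The authors deposited RPKM to 2 decimals for 30705 gene names, made from 101 bp paired-end reads on mm10 per the submitters' processing notes. The aligner and counter are not given in the sources used here, nor is whether counting used strand. The paper's methods call these values normalized counts. Their sums were nearly equal between samples (878504 to 903881), and 12082 names were at 0 in all samples. Gene names written as dates (25, of which 14 were tested and 1 is among the 468) are not named. Depth was estimated from the step of value times transcript length among low values (GENCODE M21), and is an estimate: it was least sharp in *ptgs1*-KO replicate 1, and no counting intervals were computed.

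Genes averaging 1 RPKM or more were analyzed on log2(RPKM + 1) with limma 3.58.1 (lmFit, eBayes with trend) in R 4.3.3, with 4 group means and the contrast of the mean of 3 knockout lines with scramble, since the values are not counts. Fold changes on this scale understate those of low genes. The F test used the 3 knockout means. Adjusted p-values are Benjamini-Hochberg over all 11282 genes. The paper states that RNA came from different subclones of a line, which the labels do not give, and p-values measure only the spread between these samples. Figures were drawn with matplotlib 3.10.9. The steps were tested on simulated data. Positions and promoters are from RefSeq (GRCm38.p6), matched by symbol.

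The genes, pathway lists, and motifs were chosen with earlier results of these data known. Named genes were the 3 targets, the 15 higher and 15 lower non-overlapping genes with the largest change in the weakest line, non-overlapping genes of the lists, the genes just inside and outside the rule, and the 5 most and 5 least even among lines, by the spread of the line means over their mean change. Genes with only a cDNA clone name are counted but not named, and 1 pathway list is not reported here. Alternatives were other models, pseudocounts, filters, scalings, a replicate block, and leaving out samples or lines. Scaling to the sum without the ribosomal RNA entries was added after seeing the data.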

Additional observations from a re-analysis of the deposited data

Results flagged for a closer look

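Values that differed between the lines under the same contrast are given here, each as the largest minus the smallest log2 fold change of the 3 knockout lines, with the limma F test adjusted over all genes under 0.05. For the targets the difference was 3.22 for *Ptgs1*, 3.22 for *Ptgs2*, and 0.844 for *Ptges*, each with the largest fall in its own line. On the higher side it was 1.39 for *Syt13*, 0.558 for *Nipsnap1*, 0.376 for *Gtpbp10*, 0.592 for *Tmem200a*, 1.04 for *4632428N05Rik*, 0.983 for *Sh3bp1*, 1.1 for *Gramd1b*, 1.3 for *Fhl1*, 1.06 for *Sult2b1*, and 0.645 for *Gm2115*. On the lower side it was 0.543 for *AI662270*, 0.573 for *Ifitm1*, 0.832 for *Slc14a1*, 1.53 for *Layn*, 2.42 for *Nptx1*, 0.497 for *Krt6a*, and 1.12 for *Gria3*.

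Among the genes of the pathway lists, the difference between lines was 0.406 for *Sox9*, 0.964 for *Col3a1*, 1.25 for *Lama5*, 0.906 for *Nid2*, 0.828 for *Vcam1*, 0.26 for *Psat1*, 1.36 for *Egln3*, and 0.274 for *Nqo1*. In all, 167 of the 468 genes differed among the 3 lines.

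The mean of the sample medians of chromosome 3 differed by 0.456 (log2) between *ptgs1*-KO and *ptgs2*-KO cells and by 0.362 between *ptgs1*-KO and *ptges*-KO cells, with every sample of 1 line on the opposite side of scramble to every sample of the other. On chromosome 16, *ptges*-KO cells differed by 0.132 from *ptgs1*-KO and by 0.152 from *ptgs2*-KO cells in the same way. These differences were not tested.

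Below the level used for testing, 124 of 7341 genes with a mean under 1 RPKM and a value above 0 also had non-overlapping values (1.69%), 27 higher and 97 lower.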

How the results depend on the processing

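With the 9 knockout samples as 1 group, 30 genes passed (13 higher, 17 lower), and with the line as a random block 8 (4 and 4), since the spread between lines then counts as error. Median-ratio scaling gave 1902 calls (974 higher, 928 lower) and quantile normalization 1793 (1009 higher, 784 lower), and 379 and 366 of the 468 genes stayed non-overlapping. The cause was not tested. Scaling without ribosomal RNA gave 384 higher and 222 lower non-overlapping genes, and 407 of the 468 were among them. A minimum of 5 RPKM left 142 lower non-overlapping genes, since fewer genes were tested, and a gap of at least 0.2 left 59 (25 higher, 34 lower).

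Without the *ptgs1*-KO line there were 2511 calls (1270 higher, 1241 lower) and 2159 non-overlapping genes (1174 and 985). Without the *ptgs2*-KO line 1082 genes (511 and 571) did not overlap. Without the *ptges*-KO line there were 397 calls (204 and 193) and 730 non-overlapping genes (398 higher). Fewer samples have to lie on 1 side in each case. *Ptgs1* changed sign (0.030847) without its own line.

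Leaving out 1 sample gave 466 to 1422 calls (208 to 814 higher, 240 to 641 lower), 482 to 880 non-overlapping genes (250 to 542 higher, 231 to 484 lower), 3152 to 4581 genes that differed among lines, and 123 to 163 of the 468. Of the values for 62 named genes, 1427 kept their direction and side of the threshold, 148 lost and 14 gained significance, and 1 reversed.

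Same-numbered samples did not deviate together on average (mean r 0.0123 over 18 pairs, range -0.341 to 0.566, against -0.00456 over 36 others). Single pairs ranged widely, so this mean cannot show whether some samples shared a batch. The replicate block gave 1231 calls and 170 of the 468 genes differing among lines, and its fit changed no count by over 1.5 times.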
